A study of Drosophila melanogaster with 30 samples.

Results

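Flies that lack Pink1 mostly cannot fly, yet some of them can, and the comparison described here sets flying *pink1B9* flies against non-flying *pink1B9* flies that came from the same parent pairs. Libraries were taken by the group named in their titles: 10 libraries of flying flies (group 4, GC055051 to GC055069 with odd numbers) against 10 libraries of flies that could not fly (group 3, GC055050 to GC055068 with even numbers), which makes 20 of the 30 libraries of the study. All flies of both groups were described as males aged 1 day that carried the *pink1B9* deletion, a loss-of-function allele of *Pink1*, and each library came from a pool of 5 whole flies. Library GC055057 of group 4 nevertheless held ovary transcripts, as described below. No treatment or transgene was named for either group. The other libraries were 8 of *pink1B9* flies from parent pairs without flying offspring (group 2) and 2 of the revertant *pink1RV* (group 1). They entered the model through the filter on low counts, the scaling and the shared estimate of the spread, and not through the contrast. Nothing in the labels says which pool of group 4 is sibling to which pool of group 3, so the comparison was unpaired, and p-values reflect how much pools vary. For 6 libraries, 3 in each group, the tissue is given as human skin, although all libraries share 1 table of fly genes.

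Pink1 is a kinase on the surface of damaged mitochondria. It recruits and activates the ubiquitin ligase Parkin, encoded by *park*, which marks the organelle for removal by autophagy. In flies its loss is known for degenerating indirect flight muscles with swollen mitochondria, for male sterility and for the loss of flight. A whole fly also holds testis, accessory glands, gut, fat body, eyes, brain and cuticle, so a transcript level in these pools adds up many tissues, and fewer cells of a type cannot be told apart from less RNA per cell.

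Libraries of group 4 held 9052445 to 38330421 estimated counts, with a median of 15204635, and those of group 3 held 11467094 to 32996700, with a median of 17420876. *Pink1* (X:6683798-6687302 in the annotation BDGP6.54) was measured at 46.4 to 100.9 CPM (counts per 1000000, scaled by trimmed mean of M-values) in group 4 with a median of 60.3 CPM, and at 51.0 to 74.0 CPM in group 3 with a median of 57.3 CPM. The *pink1RV* libraries had a mean of 246 CPM, above every library of both mutant groups. The highest *Pink1* value of group 4 belonged to GC055057, the library of replicate 4, and without it the group ended at 67.7 CPM. The log2 fold change of group 4 over group 3 was 0.12 ± 0.10 (SE) with all libraries and 0.04 ± 0.08 without GC055057, with unadjusted p of 0.26 and 0.66 (adjusted p = 0.76 and 0.92 in edgeR's test). *park* was measured at a median of 66.5 CPM in group 4 and 62.1 CPM in group 3, and its log2 fold change was -0.01 ± 0.11 with all libraries and 0.05 ± 0.11 without GC055057.

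GC055057 held transcripts of the ovary. The 30 eggshell, yolk and female germline genes added up to 7751 CPM in this library, against 50.2 to 68.0 CPM in the other 9 libraries of group 4 and 53.8 to 68.7 CPM in group 3. The chorion protein genes *Cp38*, *Cp19*, *Cp36* and *Cp18*, which build the eggshell, reached 1423 CPM, 1318 CPM, 939 CPM and 504 CPM in it, and at most 2.55 CPM in any other library. The germline thioredoxin gene *dhd* reached 1486 CPM, *osk*, the posterior determinant of the oocyte, 498 CPM, and the yolk protein gene *Yp1* 379 CPM. *Cp36* was at 0 CPM in some libraries of each group, and its median was 0.101 CPM in group 4 and 0.0527 CPM in group 3. In 148 genes GC055057 had at least 10 CPM and stood over 8-fold above the highest of the other 19 libraries. It was the highest of the 20 libraries for 3933 of 13190 genes, while each of the others was the highest for 135 to 1132 genes. Its summed level of sperm genes was 21961 CPM, the lowest of the 20 libraries, against 26333 to 36869 CPM in the other 9 of group 4 and 27089 to 38543 CPM in group 3. How ovary transcripts came into a pool labelled as males was not tested, and the tests over all genes and over the lists were run with and without it. A range in CPM below includes this library unless the other 9 of group 4 are named.

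**Figure D1:**
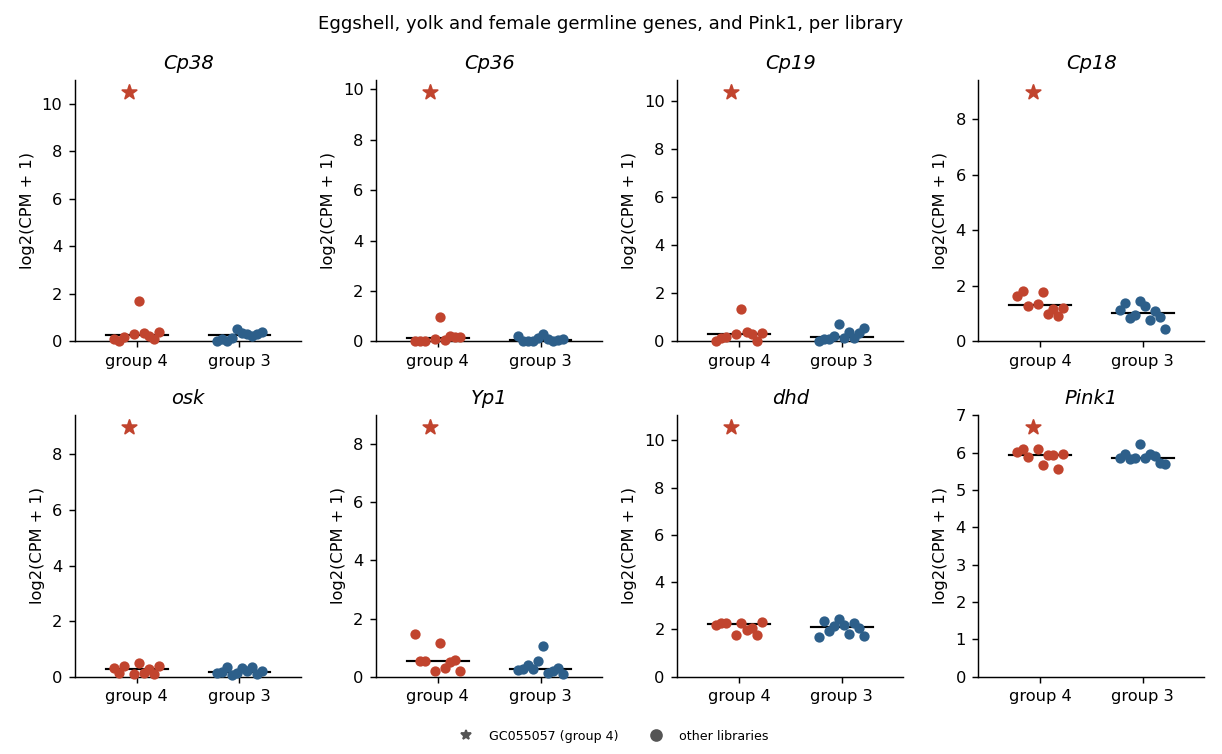
Levels of 7 eggshell, yolk and germline genes and of *Pink1*, as log2(CPM + 1), in each library of group 4 (red, left) and group 3 (blue, right), with a bar at the median and GC055057 as a star. The star stands at 379 to 1486 CPM for the 7 ovary genes, where the other 19 libraries hold at most 4.40 CPM.

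With all libraries, edgeR's quasi-likelihood test was run on 13190 genes and 0 passed a Benjamini-Hochberg adjusted p of 0.05 (0% of the genes tested, smallest adjusted p 0.115). At an unadjusted p under 0.05 there were 1055 genes, of which 709 were higher (5.38%) and 346 were lower (2.62%) in group 4. GC055057 was the highest library for 578 of the 709 higher genes, or 81.5%. Without GC055057, 13200 genes were tested and again 0 passed (0%, smallest adjusted p 0.883 in edgeR's test), and the genes at an unadjusted p under 0.05 numbered 477, with 281 higher (2.13%) and 196 lower (1.48%). DESeq2 called 1 gene with all libraries, *CG40813* (adjusted p 0.0497, 931 genes at an unadjusted p under 0.05), and 0 without GC055057 (564 genes). The limma-voom method called 0 in both settings, with 618 genes at an unadjusted p under 0.05 with all libraries and 455 without GC055057.

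No gene separated the groups: in 0 genes (0%) did all libraries of group 4 lie above, or all below, those of group 3, with or without GC055057. The data also limit how large a difference could have gone unseen. Of the 10827 genes with at least 5 CPM on average, 94.2% had a 95% interval of the fold change that lay within 2-fold in both directions, and 80.1% had one within 1.5-fold. Without GC055057 these shares were 96.1% and 86.6% of 10737 genes, with a median standard error of 0.12 on the log2 scale. The spread within the groups was alike: the SD of log2(CPM + 1) had a median over genes of 0.232 in group 4 without GC055057 and 0.225 in group 3, and 52.4% of the genes had the larger SD in group 4. With GC055057 the median SD of group 4 was 0.307. Apart from ovary genes, 58 of the 60 genes named here had the same sign of the log2 fold change in both fits, the exceptions being *park* and *Cbs*, and the largest gap between the fits was 0.34 in *Cbs*. A log2 fold change given alone below is the one without GC055057. Over all genes tested, 54.4% had a positive log2 fold change without GC055057 and 57.6% with all libraries. At an unadjusted p under 0.05, 2.13% were higher and 1.48% lower without GC055057, and 5.38% and 2.62% with all libraries. The counts for the lists below stand beside these shares.

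In a principal component analysis of the 2000 most variable genes, the first component (32.1% of the variance) set GC055057 at a score of 105.4 apart from the other 19 libraries. Group 4 exceeded group 3 by 8.78 on this component (two-sided permutation test, p = 0.84) and differed by -15.5 on the second (20.3% of the variance, permutation p = 0.086). Without GC055057 the first component held 32.0% of the variance, with a difference of -16.8 between the groups (permutation p = 0.15), and the second held 19.2%, with a difference of 5.21 (permutation p = 0.58). On the scores of both settings the libraries of the groups overlapped. The libraries GC055061, GC055065 and GC055067 of group 4, which return below, had the 3 highest scores on the second component without GC055057.

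**Figure D2:**
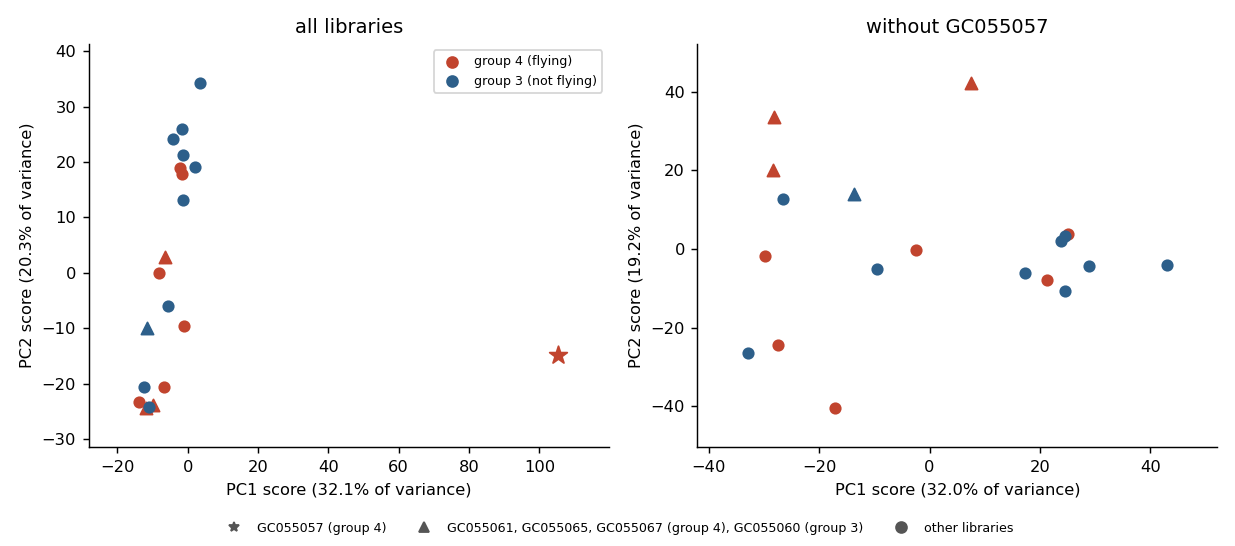
Scores on the first and second principal component of the 2000 most variable genes for group 4 (red) and group 3 (blue), with all 20 libraries on the left and without GC055057 on the right. GC055057 (star) lies at 105.4 on the first component, and the remaining libraries of the groups are intermixed on both axes.

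The study had chosen 4 genes of the endoplasmic reticulum (ER) on these samples for tests in flies, so their direction here is no independent evidence. In those tests it reported better flight of *pink1* mutants with overexpressed *wbl* or heterozygous loss of *zda*. It found no effect of overexpressed *Torsin* or *KdelR*. *Torsin*, an ATPase of the ER lumen, was measured at 14.4 to 37.9 CPM in group 4 (median 18.5) and at 12.1 to 19.7 CPM in group 3 (median 16.64). Its log2 fold change was 0.29 ± 0.14 with all libraries (unadjusted p = 0.043, adjusted p = 0.62 in edgeR's test) and 0.15 ± 0.10 without GC055057 (unadjusted p = 0.14), and the 37.9 CPM belonged to GC055057. *KdelR*, the receptor that returns chaperones from the Golgi to the ER, had 112 to 135 CPM in group 4 (median 119.6) and 87.3 to 120.3 CPM in group 3 (median 114), with a log2 fold change of 0.12 ± 0.06 with all libraries and 0.14 ± 0.06 without GC055057. *wbl*, a chaperone related to protein disulfide isomerases, had 20.4 to 43.5 CPM in group 4 (median 33.6) and 16.62 to 35.9 CPM in group 3 (median 30.4), with a log2 fold change of 0.20 ± 0.15 with all libraries and 0.28 ± 0.14 without. *zda*, which acts in the formation of autophagosomes, had 161 to 231 CPM in group 4 (median 212) and 192 to 230 CPM in group 3 (median 218), with a log2 fold change of -0.08 ± 0.06 with all libraries and -0.03 ± 0.05 without. At an unadjusted p under 0.05 *Torsin* alone stood with all libraries and *KdelR* alone without GC055057. The ranges of the groups overlapped for each of the 4 genes, and none passed the adjusted threshold in either fit.

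Without GC055057 the genes with the smallest p were a mixed set, of which a part is described. *wda*, a subunit of the histone acetyltransferase complex SAGA, had 6.55 to 9.76 CPM in the 9 libraries of group 4 (median 8.33) and 8.94 to 10.9 CPM in group 3 (median 10.2), with a log2 fold change of -0.26 ± 0.07 (unadjusted p = 0.0016, adjusted p = 0.88 in edgeR's test). In GC055057 it stood at 24.8 CPM, and with this library the log2 fold change was -0.01 ± 0.16. *Cbs*, cystathionine beta-synthase of the transsulfuration pathway, had a log2 fold change of -0.29 ± 0.09 without GC055057 and 0.05 ± 0.20 with it. GC055057 held 110.7 CPM of *Cbs* and the other 9 libraries of group 4 held 23.6 to 35.6 CPM, against 26.4 to 40.8 CPM in group 3.

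Other genes of this set gave like values with and without GC055057. *Cyp4e3*, a cytochrome P450, had 10.7 to 41.2 CPM in group 4 (median 28.0) and 24.9 to 183 CPM in group 3 (median 40.1), with a log2 fold change of -1.25 ± 0.37 with all libraries and -1.32 ± 0.38 without GC055057. *Lerp*, the fly receptor for lysosomal enzymes, had 33.6 to 55.4 CPM in group 4 (median 41.5) and 35.8 to 79.1 CPM in group 3 (median 60.7), with a log2 fold change of -0.39 ± 0.13 and, without GC055057, -0.42 ± 0.13. *SIFa*, which encodes the brain neuropeptide SIFamide, had 2.49 to 8.38 CPM in group 4 (median 3.76) and 1.48 to 3.86 CPM in group 3 (median 2.75), with a log2 fold change of 0.75 ± 0.24 and 0.81 ± 0.24. In these 3 genes the groups overlapped, and a few libraries carried the ends of the range: 183 CPM of *Cyp4e3* came from GC055066, and the 3 highest values of *SIFa* came from GC055061, GC055065 and GC055067. *CG12341* and *CG13364* had smaller but even differences, with log2 fold changes of 0.24 ± 0.07 and 0.32 ± 0.10 without GC055057.

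*CG40813* (X:22143058-22143933) was present or absent by library. In group 4, 6 of 10 libraries, GC055057 among them, held 39 to 84 counts each and the other 4 held 0 counts, and all 10 libraries of group 3 held 0 counts. Over the summed counts it stood at 1.84 CPM in group 4, while a floor of 3 counts over the summed counts of group 3 corresponds to 0.0154 CPM, so that the summed level was at least 119.8-fold higher in group 4. This bound covers counting error alone and not the spread between the pools, of which 4 in group 4 lay at 0 as well. The transcript was also found in flies of group 2, at 4.12 to 6.21 CPM in 4 of the 8 libraries and at or below 0.156 CPM in the other 4, and it was at 0 CPM in both *pink1RV* libraries, so libraries without it occurred among flying and among non-flying flies, and so did libraries with it. edgeR's quasi-likelihood test gave an adjusted p of 0.23 with all libraries and 0.88 without GC055057, and DESeq2 an adjusted p of 0.0497 with all libraries. What sets the presence of this transcript in a pool was not tested.

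The genes with the largest higher values in group 4, among those with at least 5 CPM on average and an unadjusted p under 0.05 without GC055057, were *CG34217*, *Cht5*, *CG15617*, *Achl* and *CG11413*. *Cht5* (3R:13767549-13770732), a chitinase of the molting cuticle, had 1.30 to 280 CPM in group 4 with a median of 2.92 CPM, and 1.10 to 24.5 CPM in group 3 with a median of 2.78 CPM. The medians were thus nearly equal, and the log2 fold change of 3.11 ± 0.99 without GC055057 (adjusted p = 0.88 in edgeR's test; 2.94 ± 0.99 with all libraries) rested on 71.0 CPM, 72.3 CPM and 280 CPM in GC055061, GC055065 and GC055067. In group 3 the value of 24.5 CPM belonged to GC055060. *CG15617* had 9.14 to 1223 CPM in group 4 (median 67.1) and 13.2 to 123 CPM in group 3 (median 28.0), and *CG11413* had 0.800 to 111 CPM in group 4 (median 6.41) and 2.29 to 47.9 CPM in group 3 (median 4.00). For all 5 genes the same 4 libraries, GC055061, GC055065 and GC055067 of group 4 and GC055060 of group 3, were the 4 highest of the 19. *CG34217* in GC055067 reached 144 CPM, and *Achl* in the same library 139 CPM.

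These 4 libraries also held the upper end of other genes. *e* (ebony), which makes N-beta-alanyldopamine for cuticle tanning, had 6.93 to 228 CPM in group 4 (median 30.4) and 16.2 to 52.4 CPM in group 3 (median 24.1), with a log2 fold change of 1.261 ± 0.51 without GC055057. *ple*, tyrosine hydroxylase, which makes the dopamine precursor for tanning and for neurons, had 40.1 to 354 CPM in group 4 (median 123) and 60.2 to 173 CPM in group 3 (median 107), with a log2 fold change of 0.57 ± 0.31. *Mp20*, a calponin-like muscle protein, had 360 to 687 CPM in group 4 (median 463) and 368 to 560 CPM in group 3 (median 407), with a log2 fold change of 0.32 ± 0.14. In each of the 3 genes the groups overlapped, and for *e* and *Mp20* the 4 highest libraries without GC055057 were again those above.

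**Figure D3:**
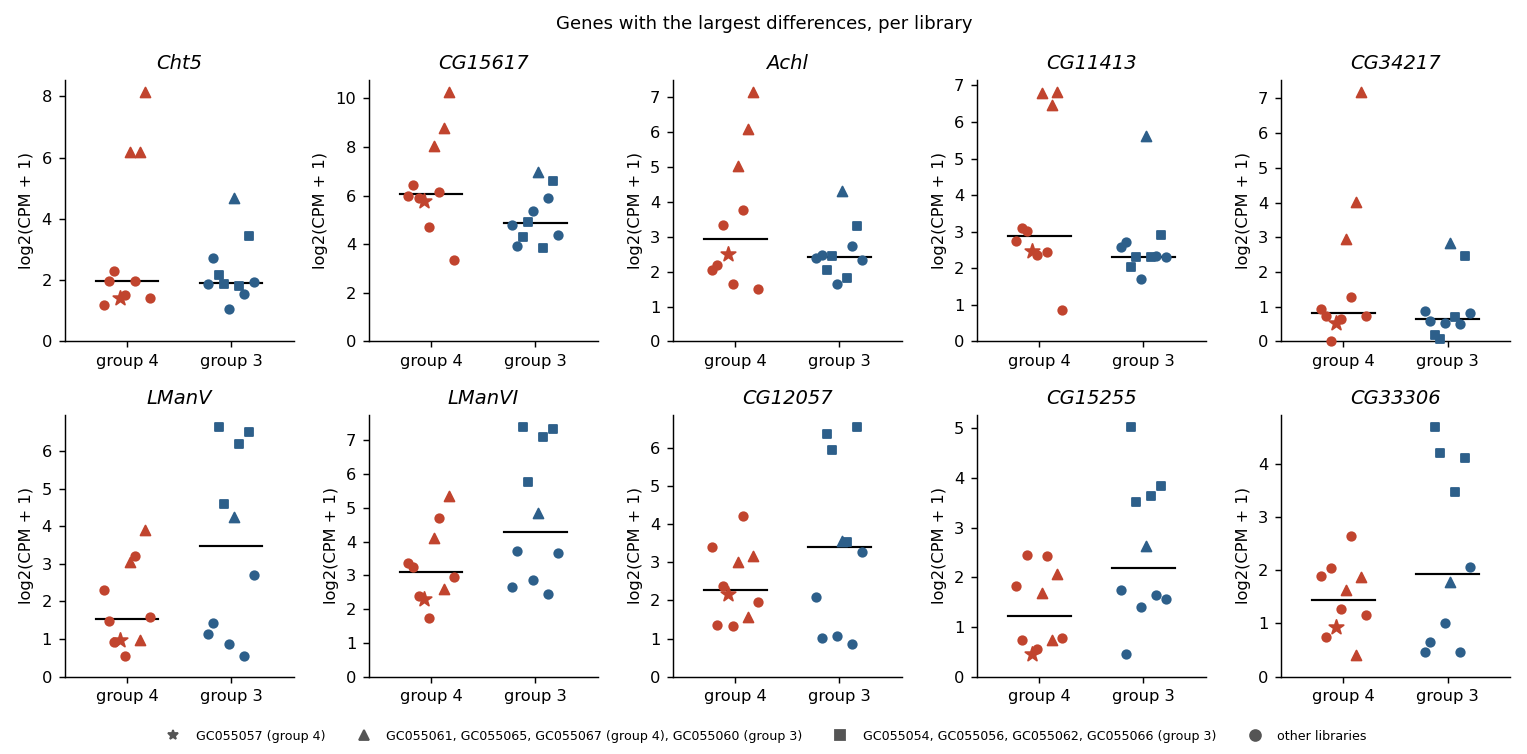
Levels as log2(CPM + 1) of 5 genes with the largest higher (upper row) and 5 with the largest lower values (lower row) in group 4 (red, left) than in group 3 (blue, right), with a bar at the median of each group. Triangles mark GC055061, GC055065, GC055067 and GC055060, which are the highest 4 in the upper row, and squares mark GC055054, GC055056, GC055062 and GC055066, 4 libraries of group 3 that carry most of the high values in the lower row.

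By the same rule the genes with the largest lower values in group 4 were *LManV*, *LManVI*, *CG12057*, *CG15255* and *CG33306*, and another set of libraries carried them. *LManV* (2L:8772946-8776263) and *LManVI* (2L:8777661-8781252), neighbouring genes for lysosomal alpha-mannosidases, may share reads, which the counting was not tested for. *LManV* had 0.473 to 13.8 CPM in group 4 (median 1.90) and 0.458 to 97.6 CPM in group 3 (median 11.7), with a log2 fold change of -2.79 ± 1.06 without GC055057 (adjusted p = 0.88 in edgeR's test) and -2.94 ± 1.02 with it. *LManVI* had 2.37 to 40.0 CPM in group 4 (median 7.58) and 4.44 to 166 CPM in group 3 (median 20.1), with a log2 fold change of -2.14 ± 0.88 without GC055057. For both genes the 4 highest libraries were GC055054, GC055056, GC055062 and GC055066, all of group 3, while the other 6 libraries of group 3 held at most 18.04 CPM of *LManV* and 27.9 CPM of *LManVI*. *CG12057* had 1.499 to 17.7 CPM in group 4 (median 3.81) and 0.811 to 91.2 CPM in group 3 (median 9.63), and 3 of those 4 libraries were among its 4 highest. *CG15255* had 0.376 to 4.48 CPM in group 4 (median 1.46) and 0.381 to 31.3 CPM in group 3 (median 3.76), with a log2 fold change of -1.87 ± 0.71 without GC055057 and -2.02 ± 0.69 with it. *CG33306* had 0.331 to 5.26 CPM in group 4 (median 1.75) and 0.384 to 24.6 CPM in group 3 (median 2.81), with a log2 fold change of -1.80 ± 0.78 without GC055057 and -1.91 ± 0.75 with it. In both genes the groups overlapped, and the 4 highest libraries were those of *LManV*.

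The list of midgut digestive enzymes, which also holds the sterol-binding *Npc2d* and *Npc2e*, leaned in the same direction. Of 51 genes tested, 7 were lower and 0 higher at an unadjusted p under 0.05 without GC055057 (1.48% of all genes were lower), and 11 were lower and 0 higher with all libraries (2.62% of all genes were lower). Without GC055057, 5 of 51 had a positive log2 fold change, and their median was -0.48, against a median of 0.02 over all genes. With all libraries the median was -0.55, and it lay at -0.91 with limma-voom and quality weights and at -0.098 with 2 surrogate variables. Their summed level was 1452 to 6284 CPM in group 4 (median 3141) and 2178 to 7528 CPM in group 3 (median 4163). GC055054, GC055056 and GC055062 were the highest of group 3 at 7391 CPM, 7204 CPM and 7528 CPM, and 4 libraries of group 4, GC055057 among them, lay below the lowest of group 3.

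Among single digestive genes, *Npc2d*, of the sterol-binding Niemann-Pick C2 family, had 0.585 to 4.04 CPM in group 4 (median 1.08) and 0.713 to 23.7 CPM in group 3 (median 3.35), with a log2 fold change of -2.26 ± 0.83 without GC055057. The trypsin gene *lambdaTry* had a log2 fold change of -1.74 ± 0.73 and the Jonah protease gene *Jon99Fi* one of -1.72 ± 0.80, and *Jon99Fi* ranged from 0.747 to 25.3 CPM in group 4 and from 0.0918 to 75.9 CPM in group 3. *Mal-B2*, a maltase, was more even, with 35.9 to 116 CPM in group 4 (median 70.5) and 51.5 to 149 CPM in group 3 (median 100.03), and a log2 fold change of -0.48 ± 0.20. Gut contents, feeding and gut size were not measured, and their part in these values was not tested.

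The proteasome, which degrades proteins tagged with ubiquitin, had slightly higher values in group 4 over all its subunits. All 32 subunits tested had a positive log2 fold change, with a median of 0.19 without GC055057 (range 0.025 to 0.36) and 0.21 with all libraries. At an unadjusted p under 0.05, 17 of 32 were higher without GC055057 (2.13% of all genes were) and 21 of 32 with all libraries (5.38% of all genes were), and 0 passed the adjusted threshold in either fit. *Prosbeta4*, a subunit of the catalytic core, had 72.7 to 130 CPM in group 4 (median 89.6) and 68.4 to 107 CPM in group 3 (median 76.6), with a log2 fold change of 0.28 ± 0.11 without GC055057. *Rpn13*, a ubiquitin receptor of the regulatory particle, had 153 to 224 CPM in group 4 (median 190.2) and 148 to 211 CPM in group 3 (median 161), with a log2 fold change of 0.20 ± 0.08. The core subunit *Prosalpha5* and the regulatory subunit *Rpn12* had log2 fold changes of 0.17 ± 0.07 and 0.31 ± 0.13. In all 4 genes the groups overlapped.

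The summed proteasome level showed which libraries the difference came from. In group 4 it was 6203 CPM, 5997 CPM and 6271 CPM in GC055061, GC055065 and GC055067, 6152 CPM in GC055057 and 4290 to 4756 CPM in the other 6. In group 3 it was 5722 CPM in GC055060 and 4162 to 4573 CPM in the other 9. For 24 of the 32 subunits GC055060, GC055061, GC055065 and GC055067 were the 4 highest of the 19 libraries, which they were for 263 of all 13200 genes (1.99%). Without GC055057, leaving out a further library changed the number of subunits at an unadjusted p under 0.05 to 2 (without GC055061), 1 (without GC055065), 3 (without GC055067) or 26 (without GC055060). It was 0 of 32 without the 6 libraries labelled human skin, to which GC055065 and GC055067 belong.

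The ribosome of mitochondria, which translates the subunits encoded in their own genome, leaned the same way by a smaller amount. Of 75 subunits 8 were higher and 0 lower at an unadjusted p under 0.05 without GC055057 (2.13% of all genes were higher), and 12 and 0 with all libraries (5.38% of all genes were higher). Without GC055057, 67 of 75 had a positive log2 fold change, and the median was 0.09 (0.14 with all libraries). *mRpL48*, of the large subunit, had 11.1 to 17.3 CPM in group 4 (median 12.97) and 8.31 to 12.5 CPM in group 3 (median 11.2), with a log2 fold change of 0.29 ± 0.10. *tko*, of the small subunit, had 17.7 to 34.0 CPM in group 4 (median 21.8) and 11.3 to 27.3 CPM in group 3 (median 16.0), with a log2 fold change of 0.29 ± 0.12. The summed level was 1633 to 2375 CPM in group 4, the highest in GC055057, and 1496 to 2129 CPM in group 3. In the cytosolic ribosome 70 of 81 subunits had a positive log2 fold change without GC055057 (54.4% of all genes did), with a median of 0.07. At an unadjusted p under 0.05 there were 0 in either direction without GC055057, and 1 higher with all libraries.

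Genes for protein entry into the ER and for glycosylation gave a median of 0.13 without GC055057 (0.17 with all libraries), with 5 of 25 higher and 0 lower at an unadjusted p under 0.05 (2.13% of all genes were higher), and 7 and 0 with all libraries (5.38%). *twr* and *Spase25*, subunits of signal peptidase, had log2 fold changes of 0.25 ± 0.11 and 0.25 ± 0.12. *Dad1*, of the oligosaccharyl transferase, had 30.2 to 52.8 CPM in group 4 (median 43.3) and 24.5 to 44.5 CPM in group 3 (median 31.2), with a log2 fold change of 0.35 ± 0.15, and *TRAM*, of the translocation channel, one of 0.24 ± 0.10. The chaperones and sensors of the unfolded protein response were evenly split, with 16 of 31 positive and a median of 0.00. In both settings 3 were higher at an unadjusted p under 0.05, against 2.13% of all genes without GC055057 and 5.38% with all libraries. Of these, *prtp*, a thioredoxin-like ER protein, had a log2 fold change of 0.19 ± 0.08 and the secreted stress factor *Manf* one of 0.21 ± 0.10. Over the core autophagy genes the median was 0.01, with 12 of 24 positive and 0 at an unadjusted p under 0.05 without GC055057. With all libraries the median was 0.04, with 15 positive and 1 lower at that p (2.62% of all genes were lower).

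**Figure D4:**
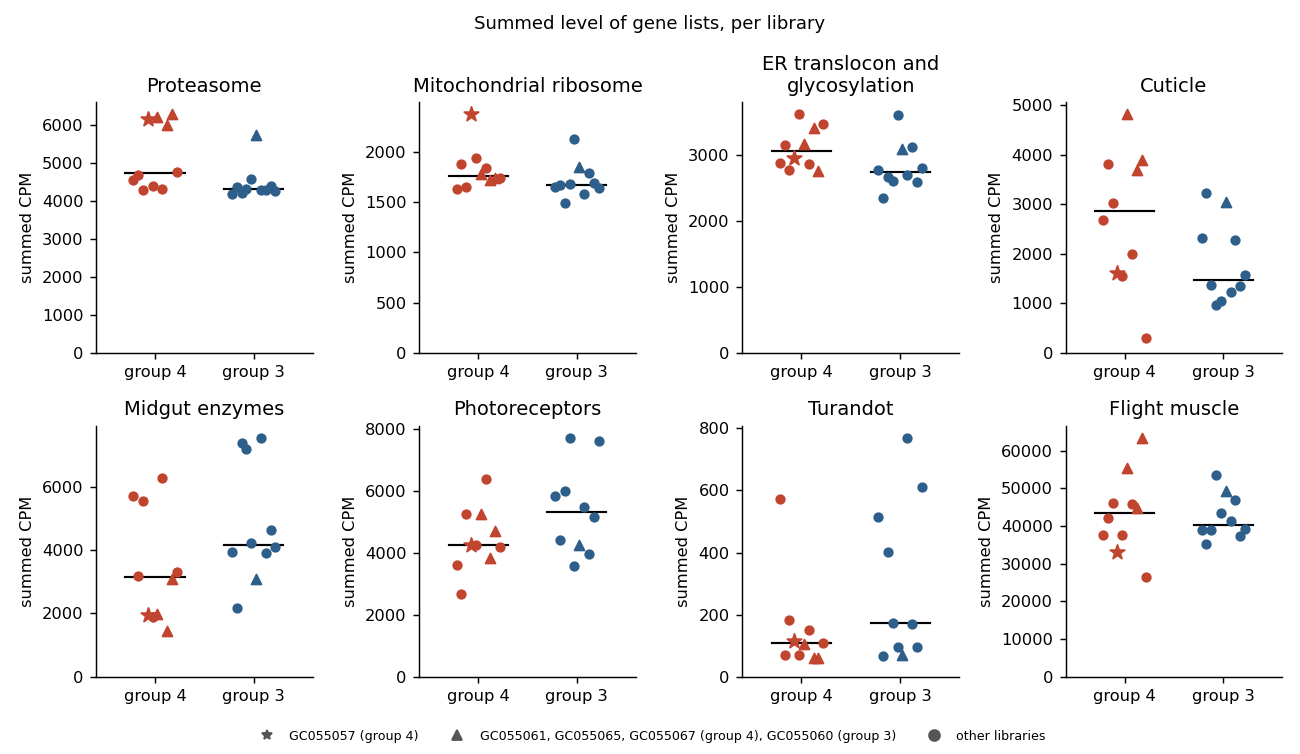
Summed CPM of 8 gene lists in each library of group 4 (red, left) and group 3 (blue, right), with a bar at the median, GC055057 as a star and GC055061, GC055065, GC055067 and GC055060 as triangles. For the proteasome the star and the triangles lie between 5722 and 6271 CPM and the other libraries at or below 4756 CPM, and for the remaining lists no such gap sets these 5 libraries apart together.

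Lists tied to the known defects of *pink1* flies showed little. Over all genes, 2.13% were higher and 1.48% lower at an unadjusted p under 0.05 without GC055057. With all libraries these shares were 5.38% and 2.62%. Of 15 genes of the Pink1 pathway and mitochondrial dynamics 1 was lower at an unadjusted p under 0.05 without GC055057: *Letm1*, a mitochondrial ion exchange protein, with 165 to 250.0 CPM in group 4 (median 192) and 186 to 276 CPM in group 3 (median 231), and a log2 fold change of -0.21 ± 0.09. The 34 nuclear genes of complex I had a median of 0.08 (0.05 with all libraries) and the 13 of ATP synthase a median of 0.05 (0.04 with all libraries), with 0 at an unadjusted p under 0.05 in either direction and setting. The 12 transcripts of the mitochondrial genome had a median of -0.12 (-0.17 with all libraries), with summed levels of 10656 to 21687 CPM in group 4 and 9301 to 23239 CPM in group 3, and 0 at an unadjusted p under 0.05. The list of flight muscle sarcomere and attachment genes was not limited to genes particular to flight muscle. These genes had a median of 0.10 without GC055057 and 0.05 with it. Without GC055057, 27 of 43 were positive (54.4% of all genes were). *Mp20* alone, higher in group 4, was at an unadjusted p under 0.05 without GC055057. With all libraries 0 were higher at that p and 1 was lower, *rhea*, the talin of muscle attachment sites. Their summed level was 26552 to 63332 CPM in group 4 (median 43552) and 35266 to 53499 CPM in group 3 (median 40269), so that group 4 held both the lowest and the highest library. The 17 glycolytic genes, also strongly expressed in flight muscle, had a median of -0.06, with 0 at an unadjusted p under 0.05 without GC055057, and a median of -0.09 with 1 lower with all libraries.

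Stress and immune genes varied between the libraries within each group. The Turandot genes encode secreted peptides that follow stress and infection. Without GC055057 their median was -0.94 over 6 genes, with 0 of 6 positive. At an unadjusted p under 0.05, 2 were lower (1.48% of all genes were). With all libraries the median was -1.02 over 5 genes, also with 2 lower (2.62% of all genes were). With 2 surrogate variables the median with all libraries was -0.31. *TotX* had 1.48 to 4.31 CPM in group 4 (median 2.58) and 1.47 to 13.9 CPM in group 3 (median 5.59), with a log2 fold change of -1.02 ± 0.43, and *TotM* one of -0.95 ± 0.45. Their summed level was high in single libraries of both groups, with 571 CPM in GC055051 of group 4, and with 513 CPM, 768 CPM and 612 CPM in GC055050, GC055062 and GC055068 of group 3, against medians of 109 CPM in group 4 and 172 CPM in group 3. Among 37 antimicrobial peptide and Bomanin genes the median was -0.01 (-0.03 with all libraries). In both settings 1 was higher and 1 lower at an unadjusted p under 0.05, against 2.13% and 1.48% of all genes without GC055057. *Drsl3*, of the Drosomycin family, was at 14.46 CPM in GC055061 and at or below 3.78 CPM in the other libraries, with a log2 fold change of 2.60 ± 0.85 (2.46 ± 0.85 with all libraries). Leaving out GC055061 brought the log2 fold change with all libraries to 0.93. *AttD*, an attacin, was low in both groups (median 0.0235 CPM in group 4 and 0.0686 CPM in group 3), with a log2 fold change of -1.83 ± 0.78.

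Lists of oxidative and other stress had few members at an unadjusted p under 0.05. Over all genes, 2.13% were higher and 1.48% lower at that p without GC055057. In the antioxidant list 1 of 28 was higher at an unadjusted p under 0.05 without GC055057: *Sod3*, the extracellular superoxide dismutase, with 63.0 to 197 CPM in group 4 (median 74.6) and 52.5 to 81.4 CPM in group 3 (median 61.2). Its log2 fold change was 0.24 ± 0.09 without GC055057 and 0.44 ± 0.15 with it, the 197 CPM being those of GC055057. The heat shock genes had a median of -0.01 (-0.03 with all libraries) with 0 of 18 at an unadjusted p under 0.05 in both settings, and their highest sum, 7529 CPM, was again in GC055057, against 3750.2 to 4754 CPM in the other 9 of group 4 and 4020 to 5868 CPM in group 3. In the list of ATF4 targets and one-carbon enzymes *pug*, a folate enzyme, was the 1 of 13 lower at an unadjusted p under 0.05, with a log2 fold change of -0.44 ± 0.21, and 102 to 349 CPM in group 4 (median 196) and 162 to 414 CPM in group 3 (median 277). In hemocytes, the blood cells, *PPO1*, a prophenoloxidase, was the 1 of 14, with a log2 fold change of -1.15 ± 0.52.

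The remaining lists mark other tissues of the male. Sperm axoneme and sperm protein genes had a median of 0.01 without GC055057 and -0.06 with it. At an unadjusted p under 0.05, 1 of 47 was lower without GC055057 (1.48% of all genes were lower). With it 6 of 47 were lower (2.62% of all genes were lower). The 1 gene without GC055057 was *kl-5*, a dynein heavy chain of the sperm tail on the Y chromosome. It had 28.0 to 58.1 CPM in group 4 (median 35.4), 29.1 to 78.9 CPM in group 3 (median 54.8) and a log2 fold change of -0.38 ± 0.17. Genes of the accessory gland, which makes seminal fluid, had a median of 0.18 with 27 of 30 positive (0.12 and 23 with all libraries). Without GC055057 *lectin-46Cb* alone was at an unadjusted p under 0.05, with a log2 fold change of 0.25 ± 0.12 (2.13% of all genes were higher). With all libraries 0 of 30 were.

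Photoreceptor genes had 4 of 28 positive and a median of -0.19 (-0.22 with all libraries). Without GC055057, 1 of them was higher at an unadjusted p under 0.05 (2.13% of all genes were). This was the eye pigment transporter gene *bw*, with a log2 fold change of 0.31 ± 0.14, opposite to the median of the list. The photoreceptor channel gene *trpl* had 103 to 205 CPM in group 4 (median 167) and 141 to 291 CPM in group 3 (median 167), with a log2 fold change of -0.28 ± 0.16. The list of neuronal genes had 5 of 20 positive and a median of -0.08 (-0.14 with all libraries). The 1 higher at an unadjusted p under 0.05 in both settings was *e*, which is made in glia and acts in cuticle tanning. Of all genes, 2.13% were higher without GC055057 and 5.38% with all libraries. With all libraries 1 gene was lower at that p, *cpx*, the complexin of synapses (2.62% of all genes were lower).

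Cuticle genes had the highest median of the lists without GC055057, 0.31 over 57 genes with 45 positive. At an unadjusted p under 0.05, 3 were higher and 1 lower (2.13% and 1.48% of all genes were). With all libraries the median was 0.28 over 55 genes, with 2 higher and 1 lower (5.38% and 2.62% of all genes were). *Cpr76Bb* had 0.610 to 1.13 CPM in the 9 libraries of group 4 and 0.270 to 0.949 CPM in group 3, with a log2 fold change of 0.80 ± 0.26, and *Cpr50Cb* one of 1.15 ± 0.45. *Cpr64Aa* had a log2 fold change of 1.67 ± 0.80 and *Cpr60D* one of -0.46 ± 0.21. The summed level was 298 to 4820 CPM in group 4 (median 2857) and 974 to 3233 CPM in group 3 (median 1474), and the highest and the lowest library were both of group 4. The highest sums were in GC055061 (4820 CPM), GC055067 (3905 CPM), GC055053 (3822 CPM) and GC055065 (3688 CPM), all of group 4. Of these, GC055061, GC055065 and GC055067 were also among the highest for *Cht5*, *e* and the proteasome. The list of larval serum and fat body genes holds larval serum proteins, lipoproteins, lipid droplet proteins, the lipase gene *bmm* and *to* (takeout). It had a median of -0.16 over 12 genes (-0.21 with all libraries), with 0 at an unadjusted p under 0.05 in both settings. Its summed level was 1424 to 4406 CPM in group 4 (median 1774) and 1928 to 4472 CPM in group 3 (median 2394). In 6 libraries of group 4 the sum lay below the lowest of group 3. *Fbp1* of this list ranged from 0.831 to 1011 CPM in group 4 and from 4.41 to 1160 CPM in group 3, with a log2 fold change of -0.53 ± 1.15. The exact age of the pools within the day was not given in the sources used here, and its part in the cuticle and fat body genes was not tested.

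**Figure D5:**
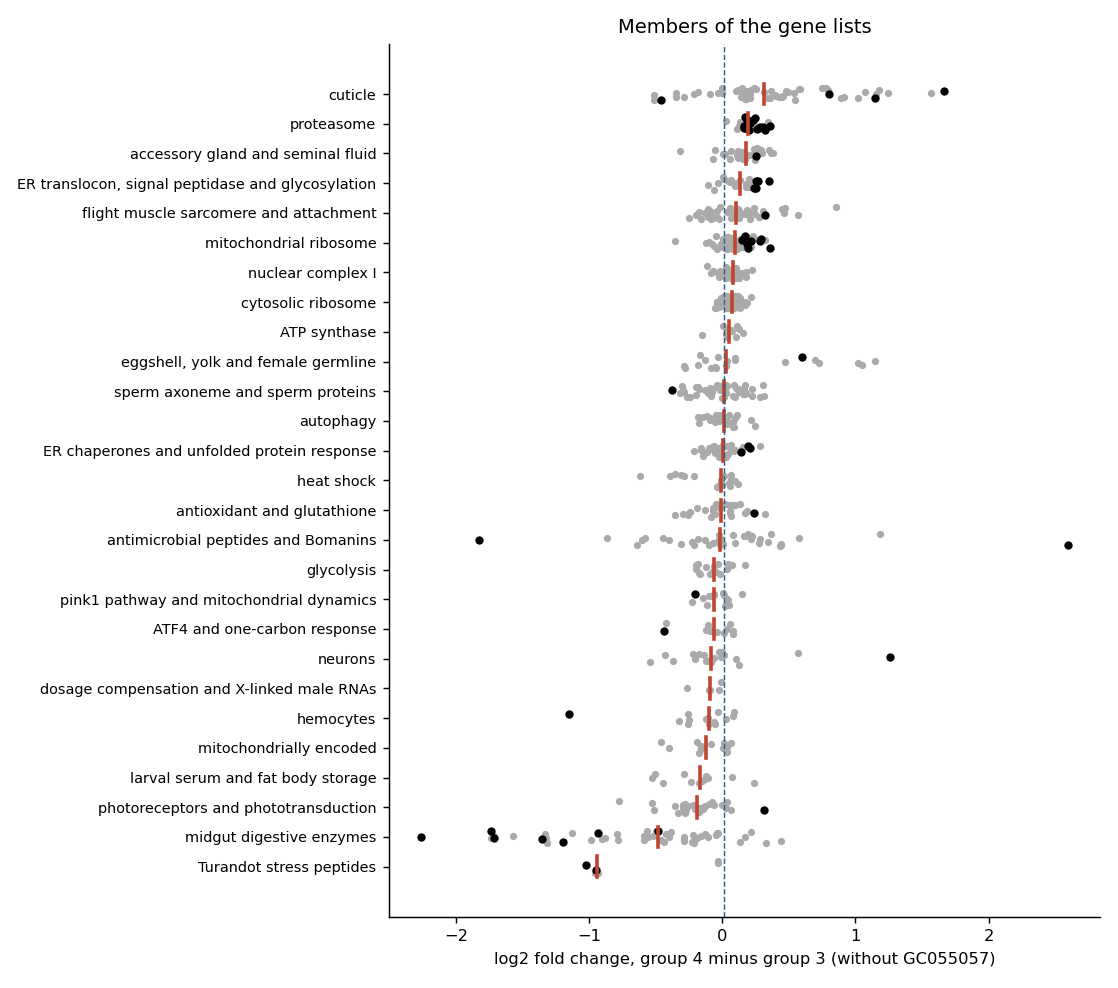
Log2 fold change of group 4 over group 3 without GC055057 for the members of 27 gene lists, with members at an unadjusted p under 0.05 in black, the others in grey, the median of each list as a red bar and the median of all genes (0.02) as a dashed line. The proteasome lies entirely to the right of 0, whereas the midgut enzymes and the Turandot peptides lie mostly to the left and spread widely.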

How the data were processed

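RNA of whole-fly pools was sequenced after preparation with a TruSeq stranded total RNA kit. Per the methods, the authors ran fastp 0.23.4, kallisto 0.44.0 on transcripts of BDGP6.46 and tximport 1.26.1, whereas the submitters' processing notes name kallisto 0.45.0 and GRCh38. The authors deposited estimated counts for each gene, all of them whole numbers, and for a scaling by transcript length the answer was not given in the sources used here. Group tests of the study used sleuth, whose inputs were not analysed here.

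The table held 14326 genes, 119 of them at 0 in all libraries. It had 0 columns without a sample and 0 pairs of identical libraries. Ribosomal RNA pseudogenes took 0.310% to 0.949% of the counts in group 4 and 0.252% to 1.61% in group 3.

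The 30 libraries were fitted in 1 model with edgeR 4.0.16 under R 4.3.3 (filterByExpr, TMM scaling, robust quasi-likelihood F-test), with the 4 groups as coefficients, and group 4 was set against group 3. P-values were adjusted by Benjamini-Hochberg over all genes tested, with a threshold of 0.05. Standard errors were taken as the log2 fold change divided by the root of its F. The fit was repeated without GC055057. Values in CPM are from the scaling of all 30 libraries. Principal components used log2(CPM + 1), and their scores were compared by a two-sided permutation test with 100000 resamples. The 2 principal components and 2 settings make 4 such tests, given without adjustment.

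The groups, the 28 gene lists and the genes were chosen with earlier results of these data known. Of 834 listed symbols, 819 matched the table and 9 more did so by synonym. Genes named are *Pink1*, *park* and the 4 ER genes of the study, those with the 12 smallest p-values in each fit, those with the 5 largest differences in each direction without GC055057 at 5 CPM or more, the members of a list with the smallest p-values, and the most variable genes, of which a part is described.

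Alternatives were DESeq2 1.42.0, limma-voom with and without quality weights (limma 3.58.1), other size factors and filters, groups 3 and 4 alone, the tissue label as a covariate, 2 surrogate variables (sva 3.50.0), no ribosomal RNA pseudogenes, no libraries labelled human skin, and fits without single libraries. Leaving out a further library beside GC055057 and a block over neighbouring library numbers were chosen after seeing the data. The steps were tested on simulated counts. Gene positions came from BDGP6.54. Python 3.11.15 served for tables and figures (matplotlib 3.10.9, pandas 2.3.3, numpy 2.4.6, scipy 1.17.1).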

Additional observations from a re-analysis of the deposited data

Results flagged for a closer look

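A total of 194 sets of values, each of the 10 libraries of 1 group, over named genes, list sums and component scores, were looked through for a library far from the other 9 of its group, by Dixon's test. It marked 51. The usual rate of 1 in 20 groups holds for normally distributed values in sets not chosen from the data. Most sets here were of named genes chosen from these data, and CPM were not log-transformed. The 51 are therefore no measure of an excess. No cause was tested for any of them.

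GC055057 of group 4 was the library in 19 of the 51. Beside the eggshell, yolk and germline sum of 7751 CPM and the score of 105.4 on the first component, these were *Cp36* (939 CPM), *Cp38* (1423 CPM), *Cp19* (1318 CPM), *Cp18* (504 CPM), *osk* (498 CPM), *Yp1* (379 CPM) and *dhd* (1486 CPM). Genes with a level in every library stood apart there too: *Pink1* at 100.9 CPM, *Torsin* at 37.9 CPM, *wda* at 24.8 CPM, *Cbs* at 110.7 CPM, *tko* at 34.0 CPM and *Sod3* at 197 CPM. Its sums of mitochondrial ribosome genes (2375 CPM), heat shock genes (7529 CPM) and dosage compensation genes (237 CPM) were the highest of group 4. The cuticle gene *Cpr76Bb* was low there, at 0.0751 CPM.

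In group 4, GC055067 stood apart in *Cht5* (280 CPM), *CG34217* (144 CPM), *CG15617* (1223 CPM), *Achl* (139 CPM) and *e* (228 CPM). GC055061 stood apart in *Fbp1* (1011 CPM), in the larval serum and fat body sum (4406 CPM) and in *Drsl3* (14.46 CPM). Other libraries of group 4 stood apart in the Turandot sum (571 CPM, GC055051), *CG12057* (17.7 CPM, GC055063), *PPO1* (3.54 CPM, GC055069) and *AttD* (0.252 CPM, GC055055).

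In group 3, GC055060 stood apart in the proteasome sum (5722 CPM), *Prosbeta4* (107 CPM), *Rpn12* (83.0 CPM), *Cht5* (24.5 CPM), *Achl* (18.9 CPM), *CG11413* (47.9 CPM), *Mp20* (560 CPM), *Cpr50Cb* (8.31 CPM), *Cpr64Aa* (4.45 CPM) and *Yp1* (1.07 CPM). GC055058 stood apart in *Pink1* (74.0 CPM), *tko* (27.3 CPM), *Fbp1* (1160 CPM) and the larval serum and fat body sum (4472 CPM). Other libraries of group 3 stood apart in *KdelR* (87.3 CPM, the lowest, GC055052), *Cyp4e3* (183 CPM, GC055066), the glycolysis sum (18011 CPM, GC055056), *AttD* (1.15 CPM, GC055054), *CG15255* (31.3 CPM, GC055054) and *bw* (7.58 CPM, GC055068).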

How the results depend on the processing

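The labels do not say which pools came from one parent pair, so the groups were compared unpaired, although their library numbers alternate. As a hint from the data and not from the design, deviations from the group means correlated at -0.00040 to 0.59 between neighbouring numbers, over 0.1 in 8 of 10 pairs. All other pairs of a group 4 and a group 3 library had a median correlation of -0.032. In 7 of 10 libraries of group 4 the best correlation was with their neighbour. A replicate block over neighbouring numbers, chosen after seeing the data, gave 0 genes past the adjusted threshold (smallest adjusted p 0.40 with all libraries and 0.36 without GC055057), 1165 and 1148 genes at an unadjusted p under 0.05, and 27 and 23 of the 32 proteasome subunits higher at that p. Under all alternatives run, the number of genes past the adjusted threshold stayed at 0, except for 1 with DESeq2 and all libraries. The 1055 genes at an unadjusted p under 0.05 became 618 with limma-voom, 3574 with quality weights (smallest adjusted p 0.098), 659 without the libraries labelled human skin and 472 with 2 surrogate variables, and 477 to 1431 when single libraries were left out; the 477 without GC055057 became 113 without human skin and 254 to 869. The proteasome members at that p numbered 0 without human skin, with or without GC055057, and 0 with 2 surrogate variables, and ranged from 7 to 28 without single libraries and from 1 to 26 beside GC055057. The group difference turned to -2.45 on the first component with a larger set of variable genes, and to -1.88 on the second with a smaller set and no GC055057. Single genes were followed over the alternatives to the fit with all libraries, and not over those to the fit without GC055057. Some genes were left out of part of the alternatives by the filter on low counts. Of 67 genes followed, 60 kept 1 direction under all alternatives in which they were tested. *park* turned to 0.0050 (DESeq2), 0.0028 (voom), 0.11 (quality weights), 0.00455 (RLE), 0.012 (total counts), 0.0070 (groups 3 and 4 alone), 0.0091 (tissue label), 0.010 (block) and 0.0041 (no ribosomal RNA pseudogenes), and ranged from -0.043 to 0.049 without single libraries. *wda* turned to 0.0039 (DESeq2), 0.0054 (RLE) and 0.041 (no human skin), with -0.256 to 0.037 without single libraries. *Cbs* turned to -0.13 (voom), -0.37 (quality weights), -0.27 (surrogate variables) and -0.11 (block), with -0.29 to 0.11. *Fbp1* turned to 0.51 (quality weights), with -1.85 to 0.14. With surrogate variables *Pink1* was at -0.041, *dhd* at -0.23 and *Jon99Fi* at 0.19. The cause of these changes was not tested.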
